A study of Schizosaccharomyces pombe with 22 samples.

Results

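The gene aha1 (SPBC1711.08) of the fission yeast Schizosaccharomyces pombe encodes an activator of the Hsp90 chaperone and holds a single annotated intron. It was followed here for a splice junction that uses a 5' splice site deep inside this intron. Every deposited branch position or junction whose 5' site fell inside the gene, on its strand, was taken as a member. This gave 6 of 17799 branch positions, which form 5 of 10352 alternate and unannotated junctions. The gene was picked with the junction counts of these libraries in view, so its RNA-seq values are given as a description and support no claim. The list of annotated introns used here had no entry for aha1, so lariat reads of the annotated intron as a whole are not analysed here.

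Hsp90 folds client proteins such as kinases in a cycle driven by ATP, and co-chaperones set the pace of that cycle. Aha1 binds Hsp90 and stimulates its ATPase activity, a role known best from the budding yeast Saccharomyces cerevisiae. An intron leaves the transcript as a lariat, a loop in which the 5' splice site is joined to the branch point. The enzyme Dbr1 opens this loop. Upf1 is the helicase of nonsense-mediated decay, which degrades transcripts with an early stop codon.

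The study read introns as lariats and as exon-exon junctions. RNA-seq of polyadenylated RNA covered the wild type strain 972h- and its dbr1 deletion, with 1 library per strain in each of rich media, heat shock and diauxic shift (the change to respiration when glucose runs out). It also covered strain ED668 and its upf1 deletion, with 2 libraries each. Cultures other than those given a heat shock were kept at 30 °C. The 12 lariat libraries, made from total RNA, all came from the dbr1 deletion, from a long and a short gel fraction, with 2 replicates in each condition. The authors gave them as 1 sum per condition, so lariat values have no replicates and no wild type counterpart. Aligned reads per RNA-seq library ranged from 12330328 to 36500561. Annotated introns had 1288031 branch reads in rich media, with 1323020 in the diauxic sum and 429329 in that of heat shock. Levels of dbr1 and upf1 RNA, which would check the deletions, are not analysed here. The labels give no temperature or time for the heat shock, and do not say whether the 2 libraries of a strain came from separate cultures.

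The gene lies on the forward strand of chromosome II (2149053 to 2150801). Exon 1 has 104 bases, of which the last 32 are coding, and exon 2 has 1270. The annotated intron between them spans 375 bases (2149157 to 2149531). The alternate junction joined position 2149465 to the annotated 3' site at 2149531, which makes an intron of 67 bases that sits at the end of the annotated one. The sequence around both 5' sites, with the first 6 intron bases in capitals, shows how they differ, and the whole alternate intron follows with its 5' site, its branch site and its last 3 bases in capitals.
annotated 5' site, chrII:2149147-2149166: ccaataactgGTATGTacag
alternate 5' site, chrII:2149455-2149474: atcgtcaaagGTTTGGaata
alternate intron, chrII:2149465-2149531: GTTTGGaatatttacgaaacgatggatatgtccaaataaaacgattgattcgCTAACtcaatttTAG

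The annotated 5' site began with GTATGT, the second most common start among 5222 annotated introns of coding genes (19.8%), after GTAAGT at 27.7%. The alternate site began with GTTTGG, which was found at 0 of these 5222 introns. It was also alone among the 406 junctions of the series that pair an annotated 3' site with a 5' site downstream of the annotated one. The branch site of the alternate intron was of the most common kind. Its branch point was the fourth base of CTAAC, a word found at the most read branch point of 49.2% of 2812 annotated introns with lariats. The branch point lay 11 bases before the 3' site, which equals the median over 1050 alternate 5' sites with an annotated 3' site (quartiles 10 and 14). At 67 bases the alternate intron was longer than 64.2% of annotated introns. Its 3 bases at the 3' end, TAG, were those of 68.5% of annotated introns.

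**Figure D1:**
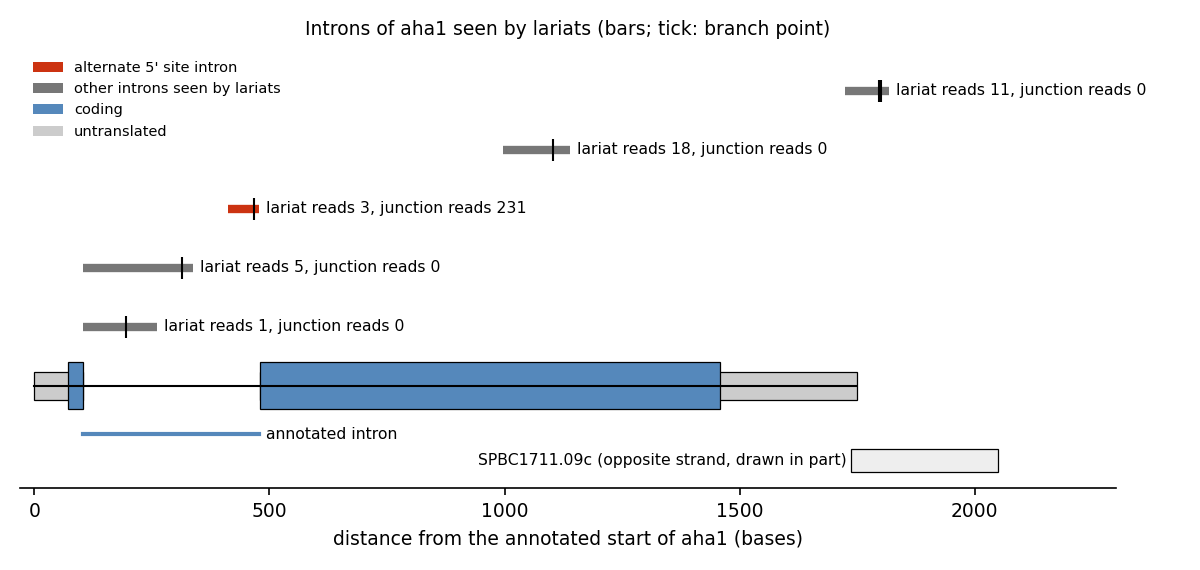
Map of aha1 with distance from its annotated start in bases on the x axis. Bars show the 5 introns seen by lariats, ticks their branch points, and numbers their lariat reads over all conditions and their junction reads over the 10 RNA-seq libraries. The alternate 5' site intron had 3 lariat reads and 231 junction reads, and the other 4 introns had lariat reads and 0 junction reads.

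In RNA-seq the alternate junction was read mainly after heat shock. In rich media it had 0 reads in wild type and 1 read in the dbr1 deletion. After heat shock it had 69 reads in wild type and 109 in the dbr1 deletion. After the diauxic shift it had 3 and 2 reads. Both heat shock libraries stood above all 4 libraries of rich media and diauxic shift. This was so for 15.5% of the 97 junctions with enough reads for a fit.

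Scaled to depth, wild type held 4.54 RPM in heat shock, that is junction reads per 1000000 aligned reads (exact 95% Poisson interval 3.53 to 5.75) and the dbr1 deletion 6.47 (5.32 to 7.81). These intervals, like all those given here, cover counting error only. The mean over both strains was 5.51 ± 1.37 RPM (SD, n = 2) in heat shock, with diauxic shift at 0.161 ± 0.00219 and 0.0320 ± 0.0453 in rich media. The diauxic SD, from 3 and 2 reads, lies far below their counting intervals (0.0328 to 0.465 and 0.0196 to 0.586 RPM). With 0 reads in rich media, where 3 reads would be 0.241 RPM, the wild type level in heat shock was 18.8-fold that of 3 reads. The exact 95% lower limit of its ratio to rich media was 14.9. In the dbr1 deletion the ratio of heat shock to rich media was 101.0, from 109 reads against 1 (17.8 to 4026). Against diauxic shift the ratios were 28.6 in wild type (9.37 to 142) and 39.9 in the dbr1 deletion (10.8 to 334). The difference between diauxic shift and rich media was not detectable at this depth, since the ratio in the dbr1 deletion was 2.53 (0.132 to 149) and the wild type had 3 reads against 0.

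**Figure D2:**
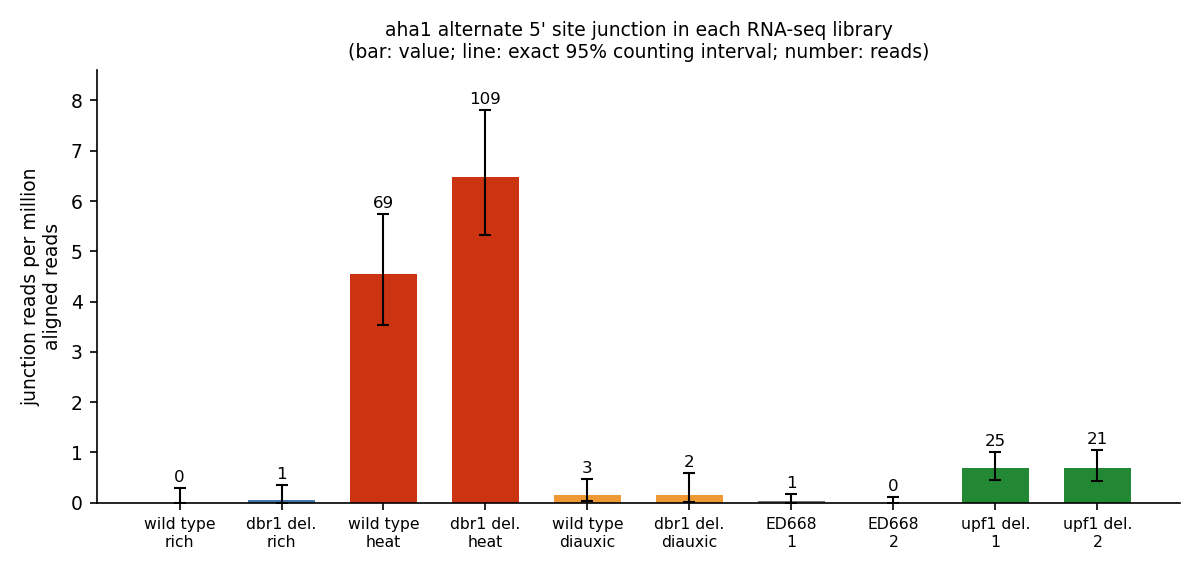
Reads at the aha1 alternate junction in RPM, reads per 1000000 aligned reads (y axis, from 0) in each of the 10 RNA-seq libraries (x axis). Bars are the values, lines exact 95% counting intervals, and the numbers above them the reads, with 69 and 109 in heat shock, 25 and 21 in the upf1 deletion, and at most 3 in the other 6 libraries.

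The junction was also read in the upf1 deletion, whose labels name no heat shock. ED668 had 1 and 0 reads and its upf1 deletion 25 and 21. The 2 groups did not overlap, which was so in this direction for 56.5% of the 62 junctions fitted, and the upf1 deletion libraries differed from each other by less than counting error (ratio 0.991, 0.532 to 1.86). The deletion held 0.688 ± 0.00450 RPM (SD, n = 2) and ED668 0.0158 ± 0.0223. Summed over libraries the ratio was 43.7, from 46 reads against 1 (7.47 to 1765). The RPM level in heat shock was 8.08-fold that of the upf1 deletion (5.81 to 11.4), a ratio across strains and experiments that also differ in the parent strain.

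For the dbr1 deletion against wild type, the only condition with enough reads was heat shock, where the dbr1 deletion stood 1.43-fold above wild type by counting error alone (1.04 to 1.96), with 1 library each. In rich media and diauxic shift no library had more than 3 reads.

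In edgeR quasi-likelihood fits over all junctions with enough reads, the alternate junction ranked among the 4 highest changes in 4 of 5 comparisons. The fits, which took strains as replicates of a condition, gave a log2 change of 7.19 ± 0.83 (SE) from rich media to heat shock, the fourth highest of 97 junctions with a median of 0.17. The junction was among the 14.4% that passed an adjusted p of 0.05 there. It stood at 5.31 ± 0.65 for heat shock against diauxic shift, where it was among the 9.28% that passed. For diauxic shift against rich media, where 4.12% passed, it stood at 1.88 ± 1.32, at rank 17, and was not among them. These comparisons share libraries, and the values against rich media lean on a single rich read, so the fitted size depends on the prior count of the fit.

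For the upf1 deletion the fitted log2 change was 4.74 ± 0.66, the third highest of 62 alternate junctions with a median of 0.16. It was among the 30.6% that passed, but not with the replicate number as a block (4.74 ± 0.72) or without either deletion library. Without ED668 replicate 1, which held the single parent read, the change rose to 7.37, and without ED668 replicate 2 it was 3.84. For the dbr1 deletion against wild type it was 1.16 ± 0.57, the fourth highest of 97, and 0% of 97 junctions passed (3 had an unadjusted p below 0.05, and DESeq2 called 2). This value was 0.51 with libraries scaled by aligned reads alone. Since the junction was chosen on these counts, nothing is read from its calls.

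**Figure D3:**
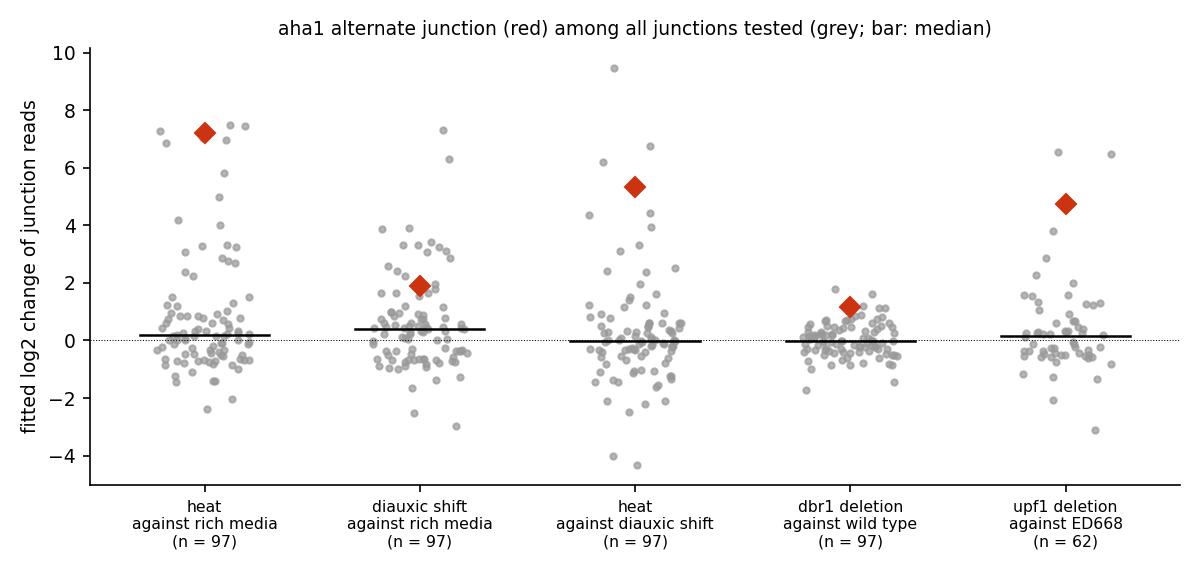
Fitted log2 change of junction reads (y axis) in 5 comparisons (x axis). Grey points are all junctions tested, bars their medians and red diamonds the aha1 alternate junction, which stood at 7.19 from rich media to heat shock and at 4.74 in the upf1 deletion.

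No reads per library of the annotated aha1 junction, and no level of the whole transcript, are analysed here. A change in how often the alternate 5' site was chosen and a change in the amount of aha1 RNA therefore cannot be told apart.

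The alternate intron keeps 308 bases of the annotated intron (2149157 to 2149464) in front of the alternate 5' site, if the transcript begins at the annotated start. Read from the annotated start codon, such a transcript met a stop codon after 14 codons, at 2149167 to 2149169. This stop lies 10 bases past the annotated 5' site, and a transcript with no intron removed met it too. The annotated transcript reads through 336 codons to its stop at 2150508 to 2150510. The kept stretch held 10 ATG triplets, and 0 of them led through the alternate junction to the annotated stop. The next ATG in the annotated frame lay in exon 2 at 2149671, after 46 codons of that exon, with 279 codons from there to the stop. Where the RNA that carries the alternate junction begins is not given by these files.

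The lariats told of further introns within the annotated one. From the annotated 5' site at 2149157, lariats ran to branch points at 2149247 and 2149368, which the authors paired with 3' sites at 2149314 and 2149391. The introns so defined span 158 and 235 bases, and both end in front of the alternate 5' site. The first ended in GAG, the end of 0.134% of annotated introns, 67 bases after its branch point. The second ended in AAG (12.4%), 23 bases after its branch point. The first had 1 read, in diauxic shift. The second had 5 reads, of which 1 was in heat shock, 4 in diauxic shift and 0 in rich media. Their branch words, TTCAA and AAGAT, were found at the most read branch point of 0 of 2812 annotated introns.

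If either of these introns were removed together with the alternate one, the stretch between them would stay as an exon of 150 or 73 bases. Either form met an early stop after 25 codons, at 2149358 to 2149360 or at 2149435 to 2149437. Both upstream junctions had 0 reads in all 10 RNA-seq libraries, also in the heat shock libraries where the alternate junction had 178 reads. For 0 reads in heat shock, the exact counting intervals reach up to 0.243 RPM in wild type and 0.219 in the dbr1 deletion. The sheet marks the alternate junction as present in an earlier published catalogue of introns (Bitton and colleagues), and both upstream junctions as absent from it.

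The alternate intron itself left 3 lariat reads, all in rich media, where RNA-seq of the same strain held 1 junction read. After heat shock, where the dbr1 deletion had 109 junction reads, 0 lariat reads were seen, as after the diauxic shift. For heat shock against rich media, 0 against 3 lariat reads allow a ratio of up to 7.26, or 13.6 with all lariat reads as scale. The interval of the junction ratio in the same strain, 17.8 to 4026, lies above both limits. The junction was chosen on its junction counts and the intervals cover counting error only, so nothing is read from this gap. The lariat libraries were made from total RNA and the junction libraries from polyadenylated RNA, and neither ratio has replicates. Introns of similar length often had lariats, as 84.3% of 722 annotated introns of 60 to 74 bases had reads (Wilson 95% interval 81.5 to 86.8), with a median of 15. Few lariat reads beside many junction reads, each summed over all conditions and libraries, were found at other sites too. Such sums do not compare lariat and junction reads within a condition. Of the 15 junctions with a downstream 5' site and at least 50 junction reads, 4, the aha1 junction included, had 3 or fewer lariat reads, in a range from 1 to 345 with a median of 10. In the list of annotated introns, 5 of the 10 with 350 to 400 bases had any read (23.7 to 76.3%), and the highest count was 2.

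**Figure D4:**
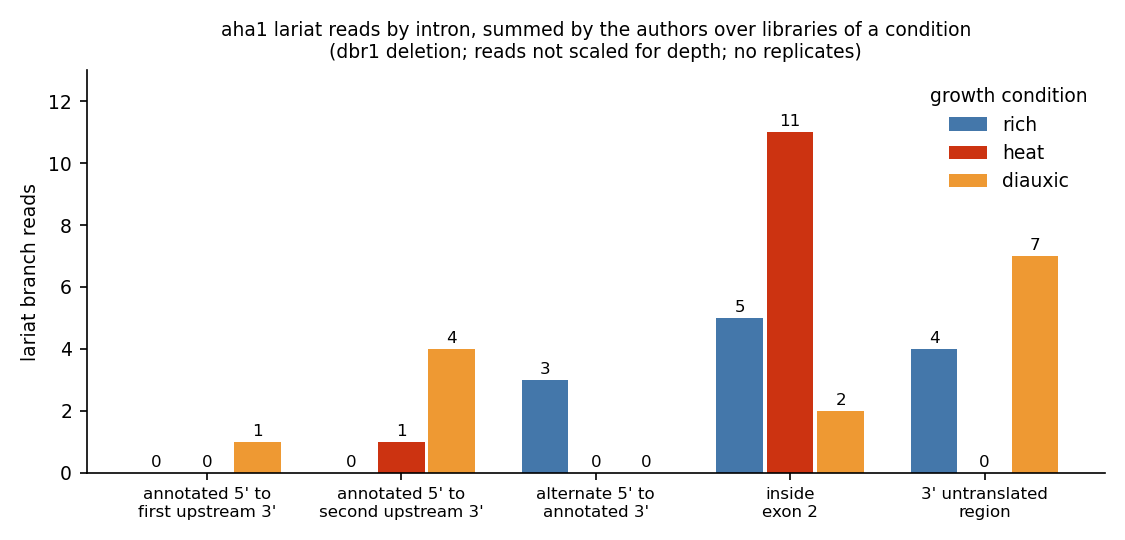
Lariat branch reads (y axis) of the 5 introns of aha1 (x axis) in each of the 3 conditions, as sums over the libraries of the dbr1 deletion and not scaled for depth. The alternate 5' site intron had 3 reads in rich media and 0 in the other conditions, and the intron inside exon 2 had 5, 11 and 2.

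The most read lariat of aha1 came from inside the coding sequence. It spanned 144 bases of exon 2 (2150050 to 2150193), with its branch point at 2150155, 38 bases before the 3' site. It had 18 reads, of which 11 were in heat shock, 5 in rich media and 2 in the diauxic sum. With annotated branch reads as the scale, heat shock stood 6.60-fold above rich media (2.11 to 24.2) and 16.9-fold above diauxic shift (3.70 to 157), with no replicates behind either ratio. With all lariat reads as the scale these ratios were 12.4 (3.97 to 45.5) and 5.72 (1.25 to 53.2). Removal of the 144 bases would take out 48 codons and keep the reading frame, with 288 codons left before the annotated stop. RNA-seq had 0 junction reads for it in all 10 libraries. The intron is shown since it was read more often than the alternate one, with its first 6 bases, its branch site and its last 3 bases in capitals.
exonic intron, chrII:2150050-2150193: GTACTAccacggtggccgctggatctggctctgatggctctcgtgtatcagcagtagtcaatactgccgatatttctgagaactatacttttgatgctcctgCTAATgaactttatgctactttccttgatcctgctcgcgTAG

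Its 5' site, GTACTA, was found at 5 of 5222 annotated introns, while its branch word CTAAT was the second most common (21.2%). Its GC content was 47.2%, against 31.3% in the alternate intron.

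The last intron began in the 3' untranslated region at 2150778, which is 268 bases after the stop codon, and ended at 2150871. Its 3' site lies 70 bases past the annotated end of aha1 and inside the transcript of SPBC1711.09c on the opposite strand (2150790 to 2151838), before the coding part of that gene (2150960 to 2151838). Its branch points at 2150849 and 2150854 had 1 and 10 reads. Together they had 4 reads in rich media and 7 in the diauxic sum, with 0 in heat shock, and RNA-seq had 0 junction reads. Its 5' site GTATGT was the same as that of the annotated intron.

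Summed over the gene, aha1 had 12 lariat reads in rich media, another 12 in heat-shocked cells and 14 in the diauxic sum. Per 1000000 annotated branch reads these were 9.32, 27.95 and 10.6. The heat shock level was 3.0-fold that of rich media (1.23 to 7.30), and 11 of the 12 heat reads lay at the exonic intron. The diauxic level was 1.14-fold that of rich media (0.488 to 2.69). With all lariat reads as the scale the heat shock level was 5.63-fold (2.31 to 13.7) and the diauxic level 6.31-fold (2.71 to 14.9) that of rich media. Heat shock against diauxic shift was then 0.892 (0.377 to 2.08), in place of 2.64 (1.12 to 6.15). Alternate sites of the annotated intron held 9 of 38 reads (23.7%, Wilson interval 12.99 to 39.2). On the opposite strand of the gene 0 branch positions were listed.

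Among the 406 junctions with a downstream 5' site, 98 had any read in heat shock and the aha1 junction had the most, at 178. It was the second of 2942 alternate junctions, behind one with 187. In rich media 33 of the 406, aha1 included, shared its count of 1 read, at rank 25. In the upf1 deletion it ranked eighth of the 406. These places come from the counts that led to the choice of the gene and are given to show scale.

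Other genes of the Hsp90 and chaperone system offered little to compare. Of 31 symbols listed, 26 were found in the annotation, one of which, ppt1, stands in this yeast for an enzyme of ubiquinone synthesis. Annotated introns were listed for 4 of the 25 genes other than aha1. The co-chaperone gene wos2, a p23 protein, had 993 lariat reads at its intron, and cdc37, the kinase-specific co-chaperone, had 54 over 3 introns. The Hsp90 gene hsp90 had 0 listed annotated introns and 1 unannotated one, with 4 lariat reads and 0 junction reads. In all, 11 of these 25 genes had 25 alternate or unannotated junctions. These held 15 junction reads together, against 231 at aha1, which was chosen with its junction counts in view. The small heat shock protein gene hsp20 had the most, with 9, of which 4 were in heat shock and 5 in the upf1 deletion. The Hsp70-related gene pss1 followed with 3, all in the upf1 deletion. The heat shock factor gene hsf1, the Hsp70 gene bip1 of the endoplasmic reticulum and wos2 had 1 each. None of the 25 genes had a junction with enough reads to enter a fit, so how many of them passed in either direction cannot be given.

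The heat shock factor binds inverted repeats of GAA. The kept stretch of 308 bases held 0 matches to GAANNTTC and 0 to TTCNNGAA on either strand, both words being their own reverse complement. The 308 bases before the start of aha1 held 1 match to GAANNTTC and 0 to TTCNNGAA. Of 5112 windows of this length before coding genes, 11.6% held the first word and 10.1% the second. Whether the factor binds at aha1 was not tested.

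The junctions with the pattern most like that of aha1 over the 8 libraries mapped in both tables were sought among 101 others with at least 10 reads on average. Likeness was the Pearson correlation of log2 RPM with a pseudocount of 0.5 reads, whose median over the 101 was -0.37. The 5 highest were unannotated introns, as were most of the 97 junctions in the growth fits. They lay in the noncoding RNA SPNCRNA.1282 (0.829), SPNCRNA.648 (0.811), the splicing factor gene sap49 (0.781), SPNCRNA.529 (0.684) and SPAPB24D3.07c (0.599). The closest, at chromosome III 2291996 to 2292083, had 107 reads in wild type and 61 in the dbr1 deletion after heat shock, 1 and 0 in rich media and 0 and 0 in diauxic shift. In the sap49 intron the heat shock reads were 72 and 42. All 5 had more heat shock reads in wild type than in the dbr1 deletion (only 22 against 19 in SPAPB24D3.07c), whereas aha1 had fewer. Lower values in the dbr1 deletion were common. Scaled by aligned reads alone, the median log2 change against wild type was -0.41 over the 97 junctions fitted, with all 3 conditions together. The points share libraries and depth.

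**Figure D5:**
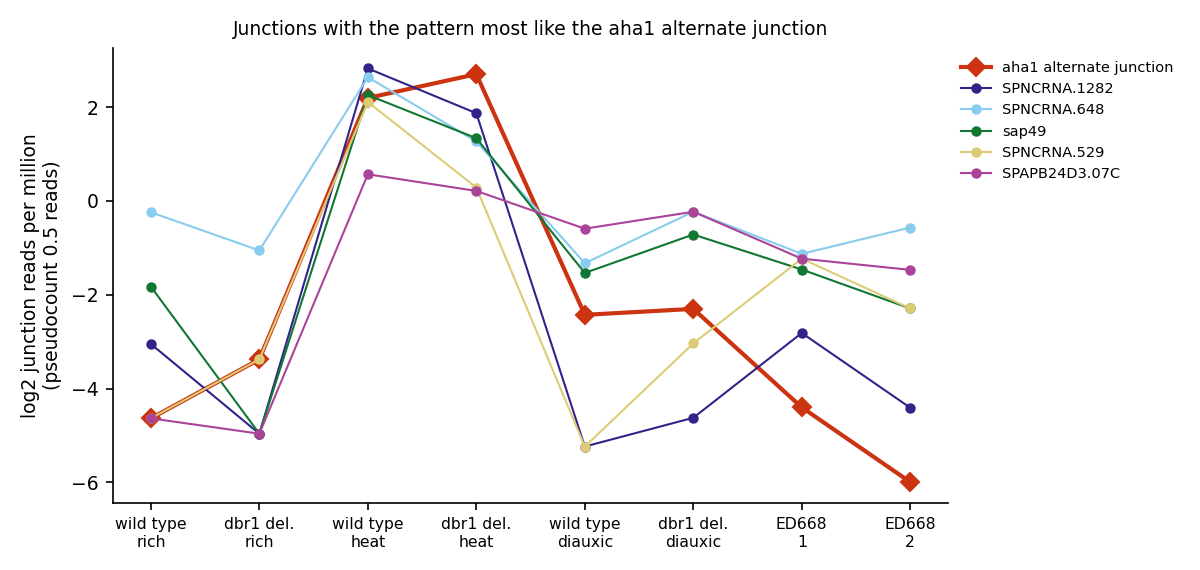
Log2 RPM of junction reads, with a pseudocount of 0.5 reads (y axis), in 8 RNA-seq libraries (x axis) for the aha1 alternate junction and the 5 junctions of most similar pattern. The SPNCRNA.1282 junction, with a correlation of 0.829, had 107 and 61 reads in heat shock, where aha1 had 69 and 109.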

How the data were processed

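Lariat counts were deposited by the authors as whole branch reads for each pair of 5' site and branch position, in 1 sum per condition, per the file headers. RNA-seq junction counts, and the aligned reads of each library, were deposited unscaled, per the file headers. The other values, lariat reads aligned by condition, were deposited as whole totals. Per the submitters' processing notes the build was ASM294v2, and the aligner was not given in the sources used here. Positions were checked on the ASM294v3 reference (RefSeq), whose annotation and sequences are used: 17799 of 17799 had GT at the 5' site and A at the branch position.

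Lariat ratios were scaled by annotated branch reads and have exact 95% counting intervals, with 3 reads in place of 0 where stated. Junction reads were fitted with the edgeR 4.0.16 quasi-likelihood test (R 4.3.3, aligned reads as library size, TMM). The filter was filterByExpr with a minimum count of 10, and the threshold a Benjamini-Hochberg adjusted p below 0.05. The growth fits had strain or condition as covariate, and the main upf1 fit had none. The upf1 fit used the alternate table, since the deletion columns of the unannotated table share 1 heading. The SE is the log2 change over the root of its F. DESeq2 1.42.0, Python 3.11.15, pandas 2.3.3, pysam 0.24.0, SciPy 1.17.1, matplotlib 3.10.9 and NumPy 2.4.6 were also used, and the fits were tested on simulated data. Names covered all aha1 rows, 31 chaperone symbols and the 5 junctions of most similar pattern. The naming rule also asked for annotated introns closest in length and lariat reads, which are not reported. The 10 deposited columns of spliced-in shares, in the table of unannotated introns, which has no row for the alternate junction, were not used. The gene and lists were chosen with earlier results of these data known.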

Additional observations from a re-analysis of the deposited data

How the results depend on the processing

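The heat shock and diauxic values of the alternate junction kept their direction and call under scaling by aligned reads, DESeq2 size factors, no filter and the DESeq2 test, with log2 changes of 7.01 to 7.42 for heat shock against rich media, 1.78 to 2.03 for diauxic shift against rich media and 4.98 to 5.50 for heat shock against diauxic shift. Wild type alone gave a log2 ratio of 4.23 for heat shock against rich media, with the 0 reads of its rich library set to 3, and gave no value for diauxic shift. For the upf1 deletion the paired fit with the replicate block gave 4.74 and was not called, but numbers did not pair the libraries (correlation 0.00877 over 62 junctions) and the block leaves fewer degrees of freedom. Leaving out 1 library gave 3.84 to 7.37, and without either deletion library the junction was not called (4.76 and 4.72). The count of called junctions, 19 in the main upf1 fit, was 0 in these 3 fits, 7 without ED668 replicate 1, 10 with DESeq2 size factors and 5 with the DESeq2 test. In the growth fits, the count for heat shock against rich media was 14, and 7 with DESeq2 size factors and 9 with no filter. For diauxic shift against rich media it was 4, 6 with scaling by aligned reads, and 0 with size factors, no filter or the DESeq2 test. For heat shock against diauxic shift it was 9, and 6 with no filter. The dbr1 value was called without the diauxic pair of libraries, at 1.34 (3 junctions called, against 1 without the rich pair and 0 with all libraries), and could not be had without the heat shock pair, where the junction had too few reads. With all lariat reads as scale, diauxic shift against rich media was 6.31. The planned share of alternate reads among all reads of the annotated intron is 100% by construction, since its denominator held 0 annotated reads, and checks nothing. The counts of 0 to 3 reads outside heat shock and the upf1 deletion limit every ratio.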
